A study of Mus musculus with 9 samples.

Results

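Transcript levels of 44 mouse genes of DNA replication and cell division were measured in bulk RNA from prostate tumours and their metastases. The genes were taken by symbol from a list, mapped through their Ensembl identifiers, and comprised 18 replication genes and 26 mitotic genes among the 47069 gene rows of each library. All 44 were found and all 44 had enough counts to be tested, among 18204 genes tested. The 9 libraries came from 3 distal metastases, 3 proximal metastases in the epididymal fat and 3 primary prostate tumours, and the study set out to compare matched localised tumours with their metastases. All 3 groups were C57BL/6 mice of about 9 to 10 months and carried the same engineered genotype, which includes Ctnnb1pc(ex3)delta/+, a deletion of exon 3 in 1 Ctnnb1 allele that stabilises beta-catenin. No group of unaltered prostate was analysed here, and the driver of the deletion is not named in the labels. The labels of the distal group name both the diaphragm (as its tissue) and the lung (in the growth protocol). The labels state matching within 3 mice without saying which libraries share a mouse, so the library numbers 1 to 3 only name libraries and all comparisons were unpaired. Nothing in the labels shows that libraries of a group are independent beyond this, so p-values measure the spread between these libraries.

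Before a cell divides, the origin recognition complex with Cdc6 and Cdt1 loads the Mcm2 to Mcm7 helicase onto replication origins, and Cdc45 with the GINS complex switches the helicase on. Cyclin E, made under E2F control, drives entry into S phase, where the clamp Pcna holds the polymerases on DNA and ribonucleotide reductase and thymidylate synthase supply the nucleotides. Mitosis is then run by Cdk1 with A and B cyclins, by the Aurora and Polo kinases, and by spindle and kinetochore proteins that are transcribed late in the cycle and destroyed at its end. Replication genes peak in expression near the start of S phase and mitotic genes in G2 and M phase, so in bulk tissue both sets are widely used as readouts of how many cells are cycling. E2F sites are known from promoters of the first set, and the paired CCAAT box and cell cycle homology region (CHR) from promoters of the second.

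The promoter text of the members is shown first, because these elements are known from promoters of such genes. RefSeq sequence of the 250 bases before the annotated start (GRCm38.p6) was matched for 37 of the 44 members, 15 replication and 22 mitotic genes. Both strands were searched for E2F motifs (TTTCCCGC, TTTCGCGC, TTTGCCGC and TTTGGCGC), CHR motifs (TTTGAA and TTCGAA) and CCAAT. The 4 promoters below were chosen as the first 2 per class, in order of the p-value of distal against primary, that hold at least 2 kinds of motif and touch no annotated exon. Members with more than 1 promoter sequence were passed over. Capitals mark the motif matches on either strand, and each sequence reads 5′ to 3′ on the strand of its gene, ending at the base before the start.
Mcm2, a helicase subunit, minus strand, chr6:88898781-88899030, holds 1 CHR and 1 CCAAT match.
Mcm2: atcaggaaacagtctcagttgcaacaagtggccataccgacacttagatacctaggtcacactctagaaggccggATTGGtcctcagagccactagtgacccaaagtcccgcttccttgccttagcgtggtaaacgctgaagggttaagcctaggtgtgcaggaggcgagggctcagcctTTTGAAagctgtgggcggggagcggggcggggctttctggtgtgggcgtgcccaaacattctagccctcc
Mcm5, another helicase subunit, plus strand, chr8:75109259-75109508, holds 2 E2F matches that overlap each other and 2 CCAAT matches.
Mcm5: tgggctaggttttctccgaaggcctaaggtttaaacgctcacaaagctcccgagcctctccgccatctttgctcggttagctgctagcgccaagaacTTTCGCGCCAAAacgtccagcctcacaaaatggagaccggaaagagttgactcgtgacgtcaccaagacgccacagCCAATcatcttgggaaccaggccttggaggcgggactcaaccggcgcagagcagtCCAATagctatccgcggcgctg
Ccnb2, a B-type cyclin, minus strand, chr9:70421555-70421804, holds 1 CHR and 3 CCAAT matches.
Ccnb2: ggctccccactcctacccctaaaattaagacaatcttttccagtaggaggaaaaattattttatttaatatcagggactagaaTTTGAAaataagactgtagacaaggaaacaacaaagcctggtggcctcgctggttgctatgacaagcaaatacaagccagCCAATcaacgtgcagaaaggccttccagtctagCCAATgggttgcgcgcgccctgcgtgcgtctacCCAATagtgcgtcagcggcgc
Mki67, which encodes the Ki-67 antigen, minus strand, chr7:135716380-135716629, holds 2 CHR and 3 CCAAT matches.
Mki67: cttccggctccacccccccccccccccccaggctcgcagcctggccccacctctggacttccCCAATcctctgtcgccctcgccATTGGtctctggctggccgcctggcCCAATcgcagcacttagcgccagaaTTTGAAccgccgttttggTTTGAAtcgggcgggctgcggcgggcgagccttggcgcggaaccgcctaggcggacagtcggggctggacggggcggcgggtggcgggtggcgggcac
Among the mitotic promoters, 11 of 22 genes (50%) held a CHR match and 19 of 22 (86.4%) a CCAAT match, while 1 of 22 (4.55%), Cdk1, held an E2F match. Among the replication promoters, 4 of 15 genes (26.7%), namely Cdc6, Mcm5, Mcm6 and Mcm7, held an E2F match, 3 of 15 (20%) a CHR match and 9 of 15 (60%) a CCAAT match. Over all 27025 genes in the table the shares were 2.16% for E2F, 19.6% for CHR and 37.5% for CCAAT. The CHR share was therefore near that of all genes in the replication class and above it in the mitotic class. These matches describe letters in a window and not bound sites, and a promoter without a match may hold other forms of the same elements.

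Total counts per library ranged from 28334730 in primary 3 to 40408723 in distal 2, and the lowest count of any member in any library was 66. Levels are given as CPM, counts relative to the library total after TMM scaling, a correction for differences in composition. The primary libraries differed from each other more than those of either metastatic site: the median SD of log2 CPM over all tested genes was 0.138 in distal, 0.144 in proximal and 0.492 in primary libraries. Primary 2 also had the only TMM factor far from 1, at 0.795, against 0.994 to 1.05 elsewhere. The tissue labels were set against marker lists, given as summed CPM. Lung epithelial markers summed to 3.8 to 4.8 CPM in distal, 2.7 to 4.5 CPM in proximal and 8.2 to 37.0 CPM in primary libraries, with Sftpa1, Sftpb, Sftpc and Scgb3a2 under 1 CPM in every library. Skeletal muscle markers, which a diaphragm would hold, summed to 7.4, 683 and 927 CPM in distal 1, 2 and 3, to about 4.0 CPM in each proximal library and to 2.3 to 6.3 CPM in primary libraries. Epithelial markers (12 genes) summed to 2736 to 2903 CPM in distal, 2051 to 3053 CPM in proximal and 3117, 18373 and 8068 CPM in primary 1, 2 and 3.

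Summed over its 18 members, the replication class stood at 1061 ± 99.8 CPM in distal metastases, 954 ± 127 CPM in proximal metastases and 782 ± 138 CPM in primary tumours (SD, n = 3 each). The 26 mitotic members summed to 1512 ± 211 CPM in distal metastases, 1389 ± 335 CPM in proximal metastases and 915 ± 351 CPM in primary tumours (SD, n = 3 each). Both sums were thus highest in the distal and lowest in the primary group, and the primary libraries were far apart. Together the members held between 0.137% and 0.277% of the scaled total of a library.

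By library, the replication sum was 948, 1137 and 1099 CPM in distal 1, 2 and 3, 1026, 1027 and 807 CPM in proximal 1, 2 and 3, and 928, 763 and 655 CPM in primary 1, 2 and 3. The mitotic sum was 1268, 1638 and 1629 CPM in distal 1, 2 and 3, 1573, 1592 and 1003 CPM in proximal 1, 2 and 3, and 1321, 714 and 711 CPM in primary 1, 2 and 3. Primary 2 and 3 lay below all 6 metastases on both sums, while primary 1 lay among them, above proximal 3 on both and above distal 1 on the mitotic sum. The ratio of the mitotic to the replication sum was 1.34, 1.44 and 1.48 in distal 1, 2 and 3, 1.53, 1.55 and 1.24 in proximal 1, 2 and 3, and 1.42, 0.936 and 1.09 in primary 1, 2 and 3. Only primary 2 had more replication than mitotic transcript by this measure. In bulk RNA, fewer cells of a type and less RNA per cell cannot be told apart, so these levels do not separate fewer cycling cells from lower expression in each.

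**Figure D1:**
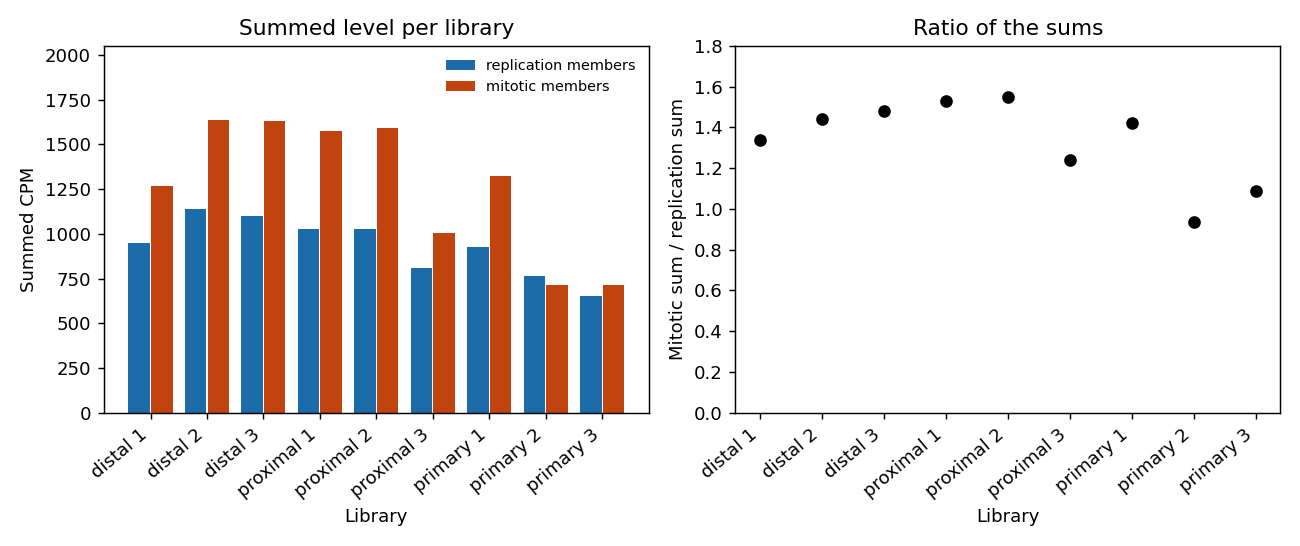
Summed CPM of the 18 replication members and the 26 mitotic members as bars for each library (left), and the ratio of the mitotic to the replication sum as points (right), with distal, proximal and primary libraries in that order along the axis. Primary 2 and 3 lie below all 6 metastases on both sums, at 763 and 655 CPM for replication and 714 and 711 CPM for mitosis, and primary 1 lies among the metastases.

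Within each metastatic site nearly all members were lowest in the same library. Within the proximal group, proximal 3 was the lowest library for 18 of 18 replication and 26 of 26 mitotic members. Within the distal group, distal 1 was the lowest for 16 of 18 replication and 26 of 26 mitotic members. Within the primary group, primary 1 was the highest for 25 of 26 mitotic members but only for 10 of 18 replication members, and primary 2 was the highest for 7 of the replication members and 1 mitotic member. The median SD of log2 CPM of the mitotic members was 0.194 in distal, 0.356 in proximal and 0.574 in primary libraries, and that of the replication members was 0.164 in distal, 0.194 in proximal and 0.441 in primary libraries. The mitotic members therefore spread more than the replication members within all 3 groups. Per kilobase of exon, averaged over all libraries, Ccnb2 (25.9 CPM per kb), Pcna (25.5), Mcm7 (24.1), Rrm2 (21.4) and Top2a (20.6) had the highest levels among the members, and Cdc6 (1.79) and Gins2 (2.60) the lowest.

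**Figure D2:**
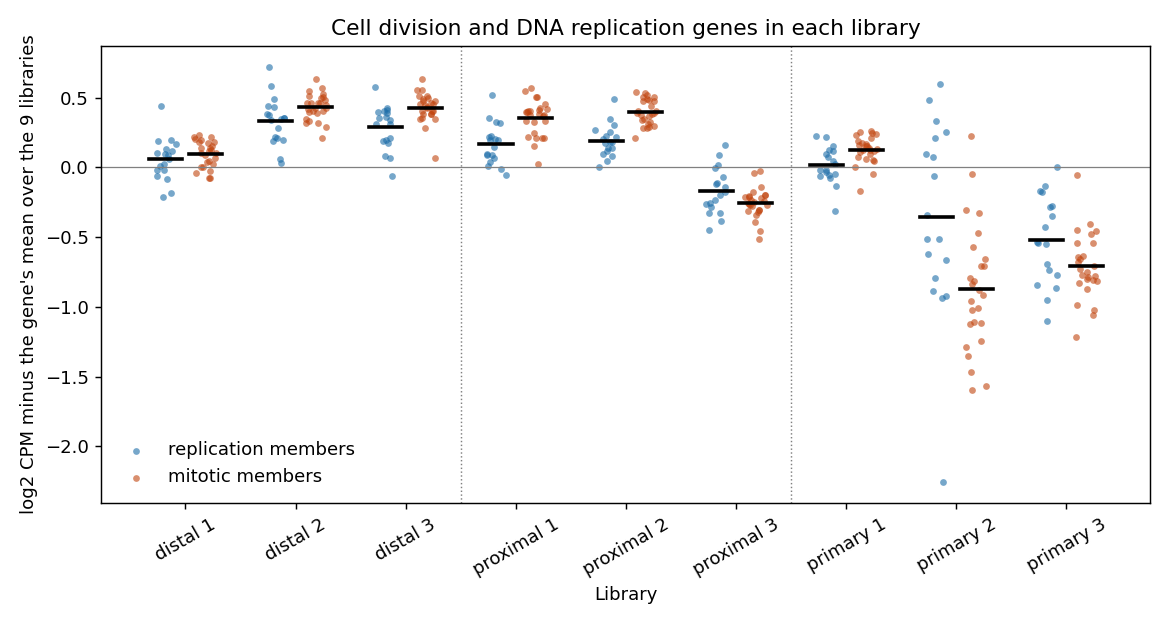
Level of each of the 44 members in each of the 9 libraries, as log2 CPM minus the member's mean over the libraries, with 1 point per member, replication left of mitotic members in each library and a black bar at the class mean. Mitotic members are low in primary 2 and 3 and, less so, in proximal 3, while the replication members of primary 2 reach from the lowest point of the plot (Ccne2) to values above the mean (Gins2 and E2f1).

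The first comparison asked how distal metastases differed from primary tumours. The median log2 fold change was 0.44 over the 18 replication members (range -0.12 to 1.22) and 0.76 over the 26 mitotic members (0.06 to 0.95), beside -0.03 over all genes tested, and 17 and 26 members had a value above 0, where 48% of all genes did. No member passed the adjusted threshold of 0.05 in edgeR's quasi-likelihood test, in which 0.0879% of all genes were called, and the lowest adjusted p was 0.234 in the replication and 0.224 in the mitotic class. At an unadjusted p under 0.05, 9 replication and 14 mitotic members were higher, 23 of 44, against 3.89% of all genes. Members mostly moved together by library, so such counts, here and below, are not counts of independent genes. In 8 replication and 12 mitotic members every distal library lay above every primary library, against 8.4% of all genes. DESeq2 and limma-voom also called no member, where they called 1444 and 1 of 18204 genes. Voom with sample quality weights, added after seeing the data, called 5 of 44 members. That fit called 3126 of 18204 genes, 1187 of them higher. The members mostly shared a direction, and none was called singly in the edgeR fit.

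Among the replication members, those that supply nucleotides had log2 fold changes of 0.25 to 0.78 and those of S phase entry 0.25 to 1.22. Tyms, thymidylate synthase (ENSMUSG00000025747, chromosome 5, 30058202 to 30073617 on GRCm38), stood at 39.9, 47.1 and 47.5 CPM in distal 1, 2 and 3, 46.3, 43.2 and 37.6 CPM in proximal 1, 2 and 3, and 39.7, 23.5 and 21.7 CPM in primary 1, 2 and 3. Its distal libraries were all above its primary libraries, though distal 1 and primary 1 differed by little. The log2 fold change was 0.66 (edgeR SE 0.24, adjusted p = 0.234). Rrm1, the large subunit of ribonucleotide reductase (ENSMUSG00000030978, chromosome 7, 102441695 to 102469771), stood at 203, 242 and 228 CPM in distal 1, 2 and 3, 223, 219 and 178 CPM in proximal 1, 2 and 3, and 198, 94.0 and 99.1 CPM in primary 1, 2 and 3. Again the groups did not overlap, and primary 2 and 3 were far below all 7 other libraries. Its log2 fold change was 0.78 (edgeR SE 0.29, adjusted p = 0.235). Rrm2, the small subunit, stood at 66.8, 60.9 and 78.5 CPM in distal 1, 2 and 3, 61.3, 64.3 and 49.7 CPM in proximal 1, 2 and 3, and 47.2, 46.2 and 58.7 CPM in primary 1, 2 and 3, with primary 3 close to distal 2. For Rrm2 the log2 fold change was 0.44 (edgeR SE 0.17, adjusted p = 0.249).

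Ccne1, cyclin E1, which binds Cdk2 at the start of S phase (ENSMUSG00000002068, chromosome 7, 38097984 to 38107534), stood at 14.4, 16.7 and 17.0 CPM in distal 1, 2 and 3, 15.02, 16.3 and 13.7 CPM in proximal 1, 2 and 3, and 13.1, 9.02 and 6.01 CPM in primary 1, 2 and 3. Every distal library was above every primary library, and primary 3 was the lowest of all 9. The log2 fold change was 0.78 (edgeR SE 0.28, adjusted p = 0.234). Ccne2, cyclin E2, chosen after its values were seen as the member with the largest change, stood at 16.7, 20.3 and 18.3 CPM in distal 1, 2 and 3, 17.6, 17.2 and 13.7 CPM in proximal 1, 2 and 3, and 14.3, 2.58 and 6.76 CPM in primary 1, 2 and 3. Primary 1 lay near the metastases and primary 2 far below them, and the log2 fold change was 1.22 (edgeR SE 0.52, adjusted p = 0.278). Ccne2 shares exon sequence with Ints8 on the other strand. Ints8 stood at 53.8 to 60.6 CPM in the metastases and at 54.0, 26.1 and 46.9 CPM in primary 1, 2 and 3. The part of this overlap in the Ccne2 counts was not tested. E2f1, a transcription factor of the G1 to S transition, stood at 16.8, 16.5 and 21.5 CPM in distal 1, 2 and 3, 16.5, 18.3 and 14.2 CPM in proximal 1, 2 and 3, and 15.3, 22.5 and 8.35 CPM in primary 1, 2 and 3. Its highest and lowest libraries were both primary tumours, so the groups overlapped, and the log2 fold change was 0.25 (edgeR SE 0.34, adjusted p = 0.655).

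The 6 helicase subunits had log2 fold changes between 0.08 and 0.59, with 2 at an unadjusted p under 0.05. Mcm2 (ENSMUSG00000002870, chromosome 6, 88883474 to 88898780), whose promoter is printed above, stood at 80.9, 110.1 and 102 CPM in distal 1, 2 and 3, 93.8, 94.3 and 71.2 CPM in proximal 1, 2 and 3, and 89.3, 57.3 and 56.1 CPM in primary 1, 2 and 3. Distal 1 was below primary 1 for Mcm2, and the log2 fold change was 0.53 (edgeR SE 0.23, adjusted p = 0.284). Mcm6, another subunit, stood at 67.7, 81.1 and 80.0 CPM in distal 1, 2 and 3, 70.2, 72.9 and 54.3 CPM in proximal 1, 2 and 3, and 68.5, 82.0 and 64.6 CPM in primary 1, 2 and 3. Primary 2 was the highest of the 9 libraries for Mcm6, the groups overlapped, and the log2 fold change was 0.09 (edgeR SE 0.16, adjusted p = 0.746). Mcm7, which overlaps Cops6 on the other strand, gave 0.08 (edgeR SE 0.17, adjusted p = 0.771). Pcna, the sliding clamp, stood at 64.5, 70.2 and 69.7 CPM in distal 1, 2 and 3, 70.1, 67.9 and 57.4 CPM in proximal 1, 2 and 3, and 62.2, 39.2 and 49.6 CPM in primary 1, 2 and 3, with every distal library above every primary library, and gave 0.44 (edgeR SE 0.18, adjusted p = 0.273). Cdt1, which loads the helicase, stood at 23.7, 26.9 and 24.7 CPM in distal 1, 2 and 3, 22.5, 25.7 and 19.5 CPM in proximal 1, 2 and 3, and 22.4, 25.0 and 20.6 CPM in primary 1, 2 and 3. The Cdt1 groups overlapped, with primary 2 above distal 1 and 3, and the log2 fold change was 0.15 (edgeR SE 0.16, adjusted p = 0.582). Gins2, a GINS subunit, gave -0.12 (edgeR SE 0.29, adjusted p = 0.808), the only member below 0, although with library totals alone as scaling it lay at 0.028.

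All 4 genes of the mitotic cyclins and Cdk1 had an unadjusted p under 0.05 and log2 fold changes of 0.70 to 0.89. Cdk1, the kinase that drives entry into mitosis (ENSMUSG00000019942, chromosome 10, 69335146 to 69352938), stood at 50.2, 58.7 and 57.3 CPM in distal 1, 2 and 3, 50.7, 54.4 and 39.8 CPM in proximal 1, 2 and 3, and 45.8, 22.6 and 31.4 CPM in primary 1, 2 and 3. The distal and primary groups did not overlap, and its adjusted p was the lowest among the members. The log2 fold change was 0.73 (edgeR SE 0.26, adjusted p = 0.224). Ccnb2 (ENSMUSG00000032218, chromosome 9, 70407692 to 70421547), whose promoter is printed above, stood at 41.1, 48.3 and 53.1 CPM in distal 1, 2 and 3, 45.5, 48.5 and 33.2 CPM in proximal 1, 2 and 3, and 39.7, 23.5 and 24.5 CPM in primary 1, 2 and 3. The groups again did not overlap, with distal 1 next to primary 1, and the log2 fold change was 0.70 (edgeR SE 0.25, adjusted p = 0.229). Ccnb1, cyclin B1, stood at 27.6, 33.3 and 33.3 CPM in distal 1, 2 and 3, 31.3, 33.3 and 20.8 CPM in proximal 1, 2 and 3, and 27.1, 9.72 and 13.9 CPM in primary 1, 2 and 3, with primary 2 the lowest library, and gave 0.89 (edgeR SE 0.37, adjusted p = 0.273).

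The 5 mitotic kinases and checkpoint genes (Aurka, Aurkb, Plk1, Bub1 and Bub1b) had log2 fold changes of 0.49 to 0.95, and the 5 spindle and cytokinesis genes (Tpx2, Nusap1, Prc1, Hmmr and Ect2) of 0.71 to 0.95. Tpx2, which activates Aurora A on spindle microtubules, stood at 63.3, 79.9 and 79.8 CPM in distal 1, 2 and 3, 75.0, 77.0 and 48.6 CPM in proximal 1, 2 and 3, and 62.7, 33.6 and 31.8 CPM in primary 1, 2 and 3. Its distal and primary groups did not overlap, with distal 1 next to primary 1, and the log2 fold change was 0.80 (edgeR SE 0.30, adjusted p = 0.243). Aurka, the Aurora A kinase, stood at 22.2, 26.1 and 25.4 CPM in distal 1, 2 and 3, 24.2, 24.2 and 16.9 CPM in proximal 1, 2 and 3, and 20.2, 16.9 and 15.3 CPM in primary 1, 2 and 3, with every distal library above every primary library, and gave 0.49 (edgeR SE 0.20, adjusted p = 0.271). Ube2c, the ubiquitin-conjugating enzyme of the anaphase-promoting complex, stood at 36.9, 41.7 and 48.7 CPM in distal 1, 2 and 3, 40.9, 41.1 and 26.6 CPM in proximal 1, 2 and 3, and 34.4, 14.5 and 17.9 CPM in primary 1, 2 and 3. Every distal library was above every primary library, and Ube2c gave 0.93 (edgeR SE 0.34, adjusted p = 0.234). Ube2c shares exon sequence with Tnnc2, a skeletal muscle troponin on the other strand, which stood at 10.6 and 16.6 CPM in distal 2 and 3 and at about 0.0 elsewhere; the part of this overlap in the Ube2c counts was not tested. Cdc20, which activates the same complex, stood at 23.4, 28.6 and 25.8 CPM in distal 1, 2 and 3, 25.0, 30.2 and 17.3 CPM in proximal 1, 2 and 3, and 21.9, 28.9 and 23.8 CPM in primary 1, 2 and 3. For Cdc20, primary 2 was above all distal libraries and the groups overlapped, and the log2 fold change was 0.06 (edgeR SE 0.23, adjusted p = 0.874).

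The 4 kinesins (Kif11, Kif20a, Kif2c and Kif23) had log2 fold changes of 0.76 to 0.93. Kif20a, a kinesin of the central spindle, gave 0.93 (edgeR SE 0.39, adjusted p = 0.279). The 3 centromere genes (Cenpa, Cenpe and Cenpf) had values of 0.54 to 0.57, none with an unadjusted p under 0.05. Mki67 (ENSMUSG00000031004, chromosome 7, 135689784 to 135716361), the routine histological marker of cycling cells, stood at 175, 251 and 254 CPM in distal 1, 2 and 3, 254, 250.3 and 144 CPM in proximal 1, 2 and 3, and 201, 101 and 88.0 CPM in primary 1, 2 and 3. Distal 1 was below primary 1, so its groups overlapped, and the log2 fold change was 0.80 (edgeR SE 0.36, adjusted p = 0.296). Top2a, topoisomerase II alpha, which untangles sister chromatids, stood at 179, 235 and 234 CPM in distal 1, 2 and 3, 225, 218 and 145 CPM in proximal 1, 2 and 3, and 189, 143 and 101 CPM in primary 1, 2 and 3. Here too distal 1 was below primary 1, and the log2 fold change was 0.58 (edgeR SE 0.27, adjusted p = 0.301). Birc5, survivin, of the chromosomal passenger complex, stood at 24.9, 29.9 and 31.1 CPM in distal 1, 2 and 3, 27.2, 30.04 and 20.3 CPM in proximal 1, 2 and 3, and 24.5, 23.6 and 14.1 CPM in primary 1, 2 and 3. Primary 1 and 2 were just below distal 1 for Birc5, the groups did not overlap, and the log2 fold change was 0.47 (edgeR SE 0.25, adjusted p = 0.345).

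**Figure D3:**
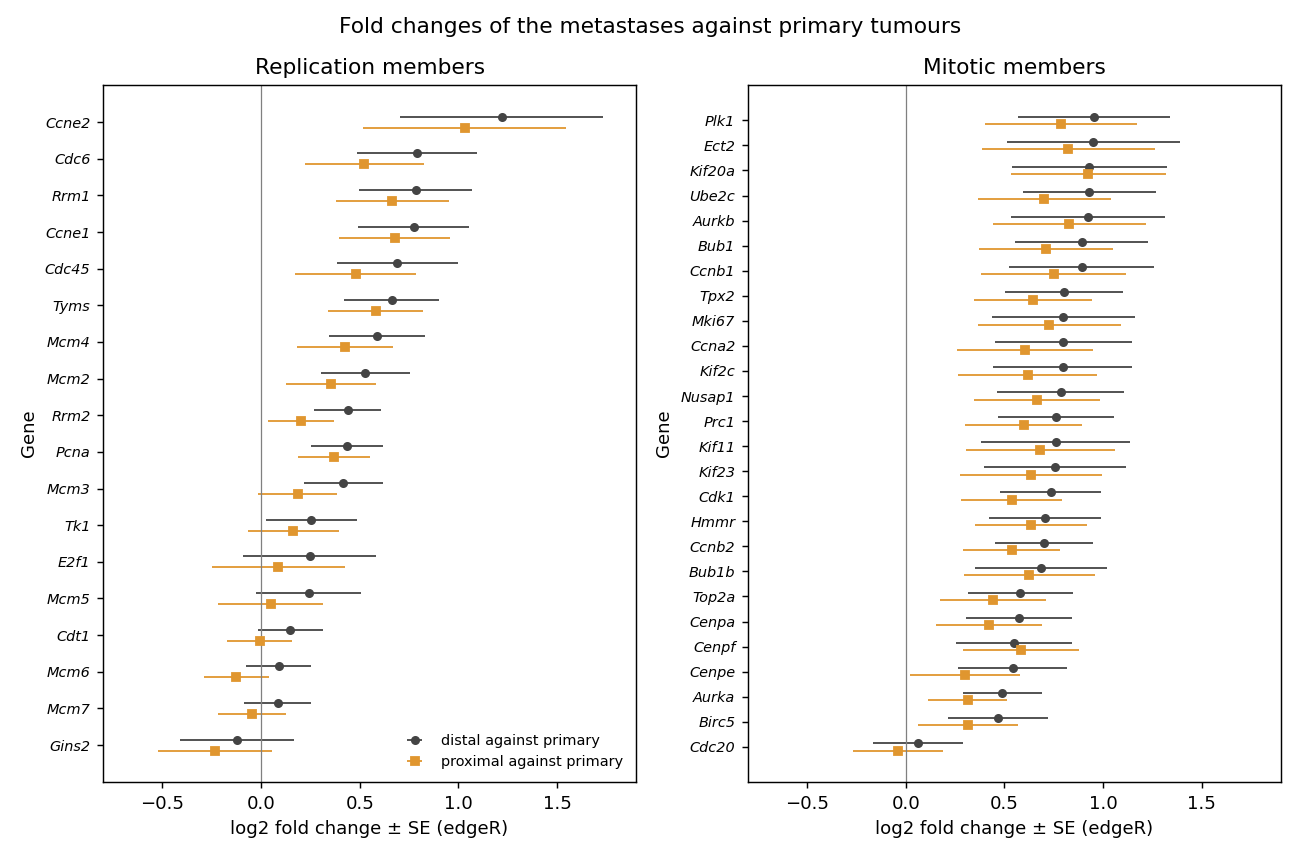
Log2 fold change of each replication member (left) and mitotic member (right) in distal against primary (circles) and proximal against primary (squares), with bars of 1 SE from edgeR's fit. Nearly all points lie right of 0, the mitotic members mostly between 0.30 and 0.95 and the replication members from -0.23 to 1.22.

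The second comparison set proximal metastases against the same 3 primary libraries, so its values are not independent of the first comparison. The median log2 fold change was 0.28 over the replication members (range -0.23 to 1.03) and 0.63 over the mitotic members (-0.04 to 0.93), beside -0.05 over all genes tested. Of the members, 14 replication and 25 mitotic genes had values above 0, against 47.2% of all genes. None passed the adjusted threshold in edgeR, where 0.0494% of all genes did, and the lowest adjusted p was 0.261 in the replication and 0.269 in the mitotic class. At an unadjusted p under 0.05, 3 replication members and 1 mitotic member were higher, 4 of 44, against 3.86% of all genes. Every proximal library lay above every primary library for 1 member, Ccne1, against 8.68% of all genes, a lower share of the members than of all genes. DESeq2 and limma-voom called no member, where they called 1486 and 1 of 18204 genes. Voom with sample quality weights called 4 of 44 members, and 3607 of 18204 genes, 1479 of them higher.

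The replication members with the lowest p-values were Tyms, with a log2 fold change of 0.58 (edgeR SE 0.24, adjusted p = 0.261), Ccne1, with 0.68 (edgeR SE 0.28, adjusted p = 0.262), and Rrm1, with 0.67 (edgeR SE 0.29, adjusted p = 0.271). For all 3, proximal 3 was the lowest proximal library, and for Tyms and Rrm1 it lay below primary 1, at 37.6 and 178 CPM. Of the mitotic members, Kif20a stood at 48.2, 62.0 and 55.2 CPM in distal 1, 2 and 3, 61.9, 61.7 and 41.2 CPM in proximal 1, 2 and 3, and 46.7, 14.02 and 26.0 CPM in primary 1, 2 and 3. Proximal 3 lay below primary 1 for this gene, primary 2 was the lowest of the 9 libraries, and the log2 fold change was 0.93 (edgeR SE 0.39, adjusted p = 0.269). Hmmr, a hyaluronan receptor that also binds spindle microtubules, stood at 30.4, 38.7 and 38.8 CPM in distal 1, 2 and 3, 39.5, 38.1 and 25.0 CPM in proximal 1, 2 and 3, and 30.3, 15.6 and 20.1 CPM in primary 1, 2 and 3, which placed proximal 3 between primary 1 and primary 3, and gave 0.63 (edgeR SE 0.28, adjusted p = 0.280). Tpx2 gave 0.65 (edgeR SE 0.30, adjusted p = 0.290), Mki67 gave 0.73 (edgeR SE 0.36, adjusted p = 0.303) and Cdk1 gave 0.54 (edgeR SE 0.26, adjusted p = 0.295). Proximal 3 also lay between primary 1 and the other primary tumours for Mki67, at 144 CPM. Values below 0 were those of Gins2, with -0.23 (edgeR SE 0.29, adjusted p = 0.609), Mcm6, with -0.12 (edgeR SE 0.16, adjusted p = 0.634), Mcm7, with -0.05 (edgeR SE 0.17, adjusted p = 0.870), Cdt1, with -0.01 (edgeR SE 0.16, adjusted p = 0.982), and Cdc20, with -0.04 (edgeR SE 0.23, adjusted p = 0.919). With library totals alone as scaling, Mcm7, Cdt1 and Cdc20 lay above 0 instead, at 0.058, 0.088 and 0.063, and that scaling placed the median of all genes at 0.07 in distal and 0.03 in proximal against primary. Cenpe, a kinesin of the kinetochore, stood at 23.5, 32.0 and 33.3 CPM in distal 1, 2 and 3, 28.0, 29.5 and 17.7 CPM in proximal 1, 2 and 3, and 26.9, 17.5 and 16.6 CPM in primary 1, 2 and 3, with proximal 3 next to primary 2 and 3, and gave 0.30 (edgeR SE 0.28, adjusted p = 0.504).

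The calls turned on primary 1. Without it, the fit called 31 members higher in distal than in primary tumours, 9 replication and 22 mitotic (50% and 84.6%), against 13.2% of all genes. For proximal against primary it called 28 members higher, 9 replication and 19 mitotic (50% and 73.1%), against 13.8% of all genes, and all 28 were among the 31. This leaves 2 primary libraries, and over all genes, both directions counted, 5203 were then called in distal and 5447 in proximal against primary, where 16 and 9 were called with all libraries. Primary 1 was the primary library that lay among the metastases for the members. Leaving it out therefore favours larger changes and lower p-values by itself, and the values that follow are no separate support. Without primary 1, Cdk1 gave 1.05 (edgeR SE 0.21, adjusted p = 0.0118) in distal and 0.86 (edgeR SE 0.20, adjusted p = 0.0213) in proximal against primary. Rrm1 gave 1.24 (edgeR SE 0.15, adjusted p = 0.00284) in distal and 1.12 (edgeR SE 0.15, adjusted p = 0.00336) in proximal against primary. Mki67 gave 1.28 (edgeR SE 0.29, adjusted p = 0.0203) in distal and 1.21 (edgeR SE 0.29, adjusted p = 0.0228) in proximal against primary. The 13 members called in neither comparison without primary 1 were Aurka, Birc5, Cdc20, Cdt1, Cenpe, E2f1, Gins2, Mcm3, Mcm5, Mcm6, Mcm7, Rrm2 and Tk1, and 4 of the 6 helicase subunits were among them.

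Set against the range of the 6 metastases, primary 1 lay within it for all 26 mitotic members and for 16 of 18 replication members, where 70.8% of all genes did. Primary 2 lay below the range for 23 mitotic and 10 replication members, where 42.7% of all genes did, and above it for 4 replication members and no mitotic member, where 36.6% of all genes did. Primary 3 lay below it for 25 mitotic and 14 replication members, where 36.7% of all genes did. The mitotic members were therefore low in both libraries, while the replication members were low in primary 3 and split in primary 2.

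A split in primary 2 was not particular to the replication members. In this library 42.7% of all genes lay below the range of the metastases and 36.6% above it, against 55.6% and 22.2% of the replication members. Among the members the split also ran within complexes. The log2 difference of primary 2 from the mean of the metastases ran from -2.74 for Ccne2 to 0.65 for Gins2 over the replication members. Its median was -0.56, with 7 of 18 above 0. In primary 3 the same values ran from -1.36 to -0.10 with a median of -0.67, and in primary 1 from -0.42 to -0.00 with a median of -0.11. Over the mitotic members the medians were -0.12, -1.13 and -1.0 in primary 1, 2 and 3, and in primary 2 the values ran from -1.96 for Kif20a to 0.22 for Cdc20. The 4 replication members above all metastases in primary 2 were Mcm6, Mcm7, Gins2 and E2f1. For Mcm6 the margin was small, at 82.0 CPM against 81.1 CPM in distal 2. Gins2 stood at 9.18, 12.7 and 10.0 CPM in distal 1, 2 and 3, 10.5, 11.3 and 7.64 CPM in proximal 1, 2 and 3, and 9.51, 15.8 and 9.30 CPM in primary 1, 2 and 3, so primary 2 was the highest library. Mcm7 stood at 105, 121 and 111 CPM in distal 1, 2 and 3, 113, 106 and 88.2 CPM in proximal 1, 2 and 3, and 104, 126 and 87.2 CPM in primary 1, 2 and 3, and again primary 2 was the highest. Mcm4, which forms the helicase with Mcm6 and Mcm7 and was chosen after its values were seen, stood at 67.1, 79.3 and 78.3 CPM in distal 1, 2 and 3, 71.2, 72.4 and 56.99 CPM in proximal 1, 2 and 3, and 67.2, 33.5 and 48.7 CPM in primary 1, 2 and 3, where primary 2 was the lowest. The subunits of a single complex thus had opposite places in this library.

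Several of these genes share exon sequence with a neighbour on the other strand, and the strand setting of the counting is not given in the sources used here. Of the 44 members, 13 overlap an exon of another counted gene. Cops6, which overlaps Mcm7, stood at 91.0 to 112 CPM in the metastases and at 87.6, 169.8 and 93.5 CPM in primary 1, 2 and 3. Gse1, which overlaps Gins2, stood at 47.1 to 64.8 CPM in the metastases and at 56.8, 96.8 and 48.3 CPM in primary 1, 2 and 3. Elovl1, which overlaps Cdc20, stood at 31.7 to 41.4 CPM in the metastases and at 37.8, 78.7 and 64.6 CPM in primary 1, 2 and 3. Cdc23, which overlaps Kif20a, stood at 84.7 to 107 CPM in the metastases and at 95.2, 34.5 and 59.9 CPM in primary 1, 2 and 3. In primary 2 these 4 neighbours lay on the same side of the metastases' mean as their members. So did Ints8, which overlaps Ccne2, at 26.1 CPM against 53.8 to 60.6 CPM in the metastases. Oip5, which overlaps Nusap1, did so at 2.69 CPM against 7.08 to 9.34 CPM. Rccd1, which overlaps Prc1, stood at 5.08 CPM against 5.67 to 7.96 CPM. Ufd1, which overlaps Cdc45, stood at 65.6 CPM against 66.9 to 76.2 CPM, again on the side of its member. Exosc9, which overlaps Ccna2, cyclin A2, and was chosen after its values were seen, lay on the other side, at 44.5 to 47.8 CPM in the metastases and at 43.9, 65.0 and 33.9 CPM in primary 1, 2 and 3, while Ccna2 in primary 2 was at a log2 difference of -1.37 from the metastases. The part of overlapping genes in the members' counts was not tested. Mcm6 and E2f1, which overlap no counted gene, were above all 6 metastases in primary 2 as well. Epithelial markers were at their highest sum in primary 2, at 18373 CPM, and their part in the split was not tested.

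**Figure D4:**
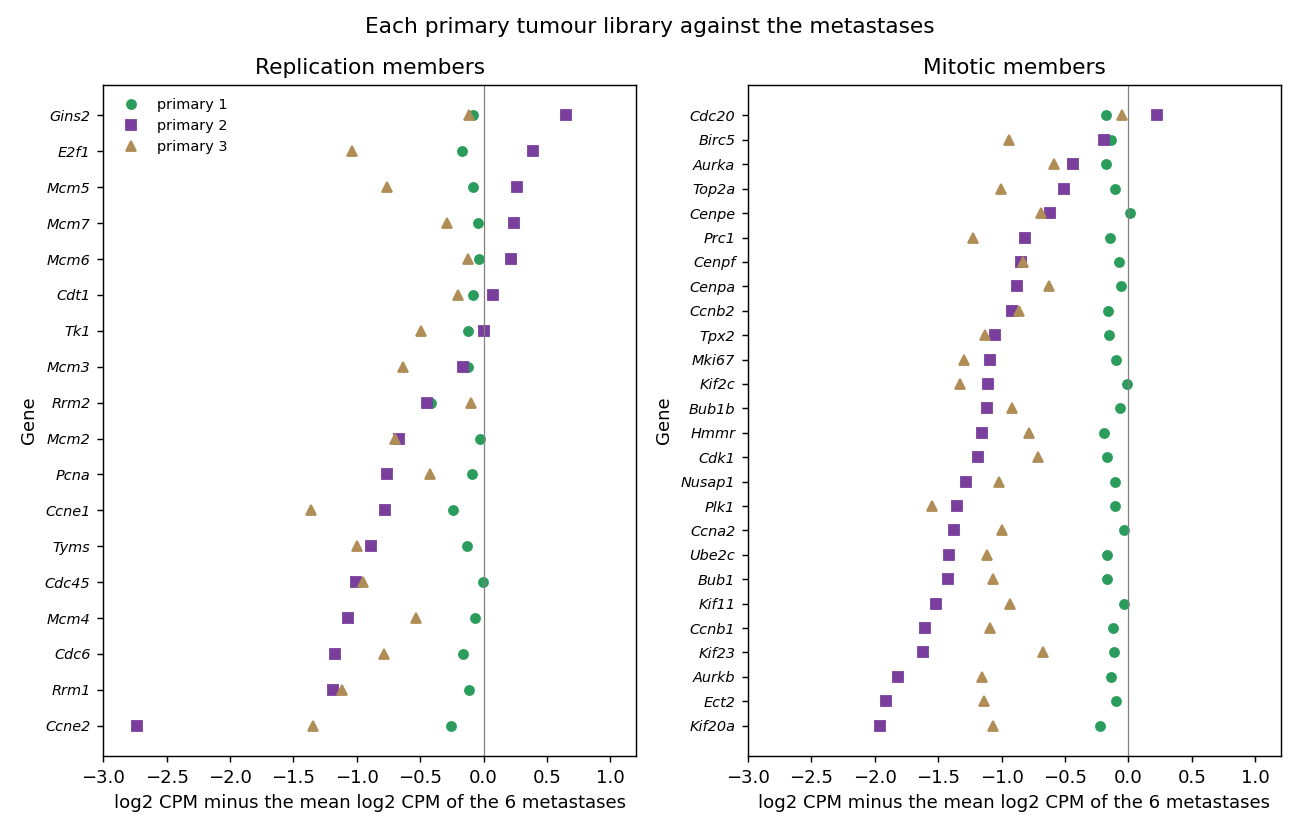
Log2 CPM of each replication member (left) and mitotic member (right) in primary 1 (circles), primary 2 (squares) and primary 3 (triangles), minus the mean log2 CPM of the 6 metastases, ordered by primary 2. Primary 1 lies slightly below 0 for all members but Cenpe, reaching -0.42 for Rrm2, and primary 3 lies below 0 for every member. Primary 2 runs from -2.74 to 0.65 over the replication members, with a median of -1.13 over the mitotic members.

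The third comparison set distal against proximal metastases. All 18 replication and 25 of 26 mitotic members had a log2 fold change above 0, against 47.2% of all genes, with medians of 0.16 (range 0.06 to 0.27) and 0.15 (-0.03 to 0.24), beside -0.01 over all genes tested. No member was called in edgeR, where 0% of all genes were, and no member had an unadjusted p under 0.05, against 1.79% of all genes higher at that threshold. The lowest unadjusted p was 0.200 in the replication and 0.404 in the mitotic class, with adjusted p = 1.0 for every member, and DESeq2, limma-voom and voom with sample quality weights called none. The dispersion was shared with the primary libraries, which spread more, so these SEs can be too large. A fit of the distal and proximal libraries alone also called no member. No member had all distal libraries above all proximal libraries, against 4.03% of all genes. Without proximal 3, 15 replication and 9 mitotic members were above 0, with medians of 0.06 and -0.03, so the direction of the mitotic class rested on that library and that of the replication class became smaller. Rrm2 gave 0.23 (edgeR SE 0.17, adjusted p = 1.0), Mcm3, a helicase subunit, gave 0.23 (edgeR SE 0.20, adjusted p = 1.0) and Cenpe gave 0.24 (edgeR SE 0.28, adjusted p = 1.0). Pcna gave 0.06 (edgeR SE 0.18, adjusted p = 1.0), and Cenpf, a kinetochore protein and the only member below 0, gave -0.03 (edgeR SE 0.29, adjusted p = 1.0). Mcm3 stood at 63.1, 80.1 and 78.0 CPM in distal 1, 2 and 3, 66.8, 71.3 and 50.2 CPM in proximal 1, 2 and 3, and 61.9, 60.3 and 43.5 CPM in primary 1, 2 and 3, and Cenpf at 49.1, 64.5 and 65.8 CPM in distal 1, 2 and 3, 70.9, 71.9 and 40.9 CPM in proximal 1, 2 and 3, and 56.4, 32.9 and 33.3 CPM in primary 1, 2 and 3. In both genes proximal 3 was the lowest metastasis, and for Cenpf the other proximal libraries were above all distal ones.

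The rest of each process was read from lists of further genes. Of 62 other mitotic genes, none was called in either comparison against primary, 60 were above 0 in distal and 58 in proximal metastases, and the median log2 fold changes were 0.67 and 0.57. At an unadjusted p under 0.05, 20 of them were higher in distal and 5 in proximal metastases, where 3.89% and 3.86% of all genes were higher. None was lower, where 2457 and 2611 of all 18204 genes were lower. Without primary 1, 38 were called higher in distal and 35 in proximal metastases, against 13.2% and 13.8% of all genes. Bub3, a spindle checkpoint protein, stood at 175, 171 and 168 CPM in distal 1, 2 and 3, 168, 163 and 164 CPM in proximal 1, 2 and 3, and 153, 73.4 and 94.1 CPM in primary 1, 2 and 3. Its primary 2 and 3 libraries were far below the rest, and its log2 fold changes were 0.68 (edgeR SE 0.24, adjusted p = 0.231) in distal and 0.63 (edgeR SE 0.24, adjusted p = 0.245) in proximal against primary. Cks1b, a subunit bound to cyclin-dependent kinases, gave 0.70 (edgeR SE 0.21, adjusted p = 0.191) in distal and 0.52 (edgeR SE 0.21, adjusted p = 0.258) in proximal against primary. Pbk, a mitotic kinase, gave 0.70 (edgeR SE 0.26, adjusted p = 0.235) in distal and 0.52 (edgeR SE 0.25, adjusted p = 0.299) in proximal against primary.

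Of 52 other replication genes, none was called, 39 were above 0 in distal and 36 in proximal metastases, and the medians were 0.29 and 0.17. At an unadjusted p under 0.05, 6 were higher and 2 lower in distal, and 3 higher and 2 lower in proximal metastases, beside 3.89% and 3.86% of all genes higher. Of all 18204 genes, 2457 were lower in distal and 2611 in proximal metastases at that threshold. Without primary 1, 14 were called higher and 2 lower in distal, and 12 higher and 3 lower in proximal metastases, beside 13.2% and 13.8% of all genes called higher. In both directions, 5203 of 19009 genes were called in distal, 2516 of them higher, and 5447 in proximal metastases, 2622 of them higher. Slbp, which binds the stem-loop of histone mRNA in S phase, gave 0.58 (edgeR SE 0.20, adjusted p = 0.221) in distal and 0.48 (edgeR SE 0.20, adjusted p = 0.261) in proximal against primary. Dctd, dCMP deaminase, which makes the substrate of thymidylate synthase, had the opposite sign, with -1.51 (edgeR SE 0.47, adjusted p = 0.192) in distal and -1.74 (edgeR SE 0.47, adjusted p = 0.158) in proximal against primary. Dctd stood at 2.40, 2.501 and 2.67 CPM in distal 1, 2 and 3, 2.06, 2.91 and 1.49 CPM in proximal 1, 2 and 3, and 3.03, 8.63 and 9.98 CPM in primary 1, 2 and 3, so primary 2 and 3 were above all other libraries. Of 19 transcription factors and pocket proteins of the cell cycle, 16 were above 0 in each comparison against primary, with medians of 0.38 in distal and 0.48 in proximal metastases. Rbl2, a pocket protein found in resting cells, gave 0.36 (edgeR SE 0.21, adjusted p = 0.361) in distal and 0.57 (edgeR SE 0.21, adjusted p = 0.232) in proximal against primary. E2f4, its E2F partner, gave -0.35 (edgeR SE 0.17, adjusted p = 0.313) in distal and -0.39 (edgeR SE 0.17, adjusted p = 0.275) in proximal against primary. Tfdp2, a dimerisation partner of E2F proteins, gave 0.61 (edgeR SE 0.27, adjusted p = 0.288) in distal and 0.81 (edgeR SE 0.27, adjusted p = 0.203) in proximal against primary. Of 6 linker histone genes 5 were tested and none was called, with medians of 0.14 in distal and -0.16 in proximal against primary. Among them Hist1h1b, a linker histone of S phase, gave -1.41 (edgeR SE 0.85, adjusted p = 0.372) in distal and -1.84 (edgeR SE 0.86, adjusted p = 0.293) in proximal against primary. Hist1h1c, another linker histone, gave 0.76 (edgeR SE 0.33, adjusted p = 0.289) in distal and 0.80 (edgeR SE 0.33, adjusted p = 0.263) in proximal against primary, and H1f0, the linker histone of resting cells, gave 0.42 (edgeR SE 0.23, adjusted p = 0.349) in distal and 0.52 (edgeR SE 0.23, adjusted p = 0.280) in proximal against primary. The mitotic lists thus had larger medians than the replication lists in both comparisons, and this difference between lists was not tested.

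Markers of other cell types were set side by side over the same groups, and the ranges of several lists overlapped. All 12 epithelial markers had log2 fold changes below 0 in both comparisons against primary. Of all 18204 genes tested, 9467 were below 0 in distal and 9605 in proximal against primary. The epithelial sum of primary 1, at 3117 CPM, was close to that of proximal 3, at 3053 CPM. Prostate luminal markers (8 genes, Msmb under 1 CPM in every library) summed to 192 to 206 CPM in distal, 188 to 215 CPM in proximal and 314 to 874 CPM in primary libraries. Macrophage markers (10 genes) summed to 372 to 693 CPM in distal, 264 to 516 CPM in proximal and 563 to 937 CPM in primary libraries. Endothelial markers (9 genes) summed to 133 to 227 CPM in distal, 144 to 213 CPM in proximal and 229.8 to 333 CPM in primary libraries. T cell markers (10 genes) summed to 2.2 to 4.6 CPM in distal, 2.4 to 18.9 CPM in proximal and 6.4 to 39.0 CPM in primary libraries. Seminal vesicle markers summed to 3.1 to 12.9 CPM in distal and 4.4 to 17.8 CPM in proximal libraries, and to 10.4, 30.6 and 10566 CPM in primary 1, 2 and 3, so the high level was that of primary 3 alone. Fibroblast markers (9 genes) summed to 2369, 2871 and 2656 CPM in distal 1, 2 and 3, 2251, 3349 and 1609 CPM in proximal 1, 2 and 3, and 3487, 1170.5 and 2111 CPM in primary 1, 2 and 3. In this list, as for most mitotic members, distal 1 and proximal 3 were the lowest of their sites and primary 1 the highest primary tumour. Distal 1 and proximal 3 were also the lowest of their sites for macrophage and T cell markers, but there primary 1 was the lowest primary tumour. Erythroid markers (7 genes) summed to 443, 1698 and 5851 CPM in distal 1, 2 and 3, 210.3 to 304 CPM in proximal and 218 to 536 CPM in primary libraries. All 7 had log2 fold changes above 0 in distal against primary, where 48% of all genes did. At an unadjusted p under 0.05 in edgeR, 5 of them were higher, against 3.89% of all genes. B and plasma cell markers (9 genes) summed to 11.2 to 224 CPM in distal, 33.6 to 597 CPM in proximal and 31.0 to 1447 CPM in primary libraries. Primary 1, which lay among the metastases for the members, also had the lowest epithelial, prostate luminal and macrophage sums of the primary tumours. Adipocyte markers (8 genes, Lep under 1 CPM in every library) summed to 16.3 to 356 CPM in distal, 112 to 465 CPM in proximal and 23.2 to 343 CPM in primary libraries, with primary 1 the highest primary tumour. The part of other cell types in the members' differences was not tested.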

How the data were processed

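Each library's deposited file held whole-number counts per Ensembl gene, 47069 rows, of which 46488 matched a symbol in GENCODE M21 (GRCm38). Per the submitters' processing notes, reads were handled with Bowtie2 2.2.6.0, TopHat2 2.1.0, HTSeq 0.6.0 and FastQC 0.11.4 on GRCm38.p3, and the notes also name DESeq2 1.14.1 and R 3.2.3. Strand setting, annotation release and read filters are not given in those notes. The rest of the genotype label is not reported here, and the labels give no batch. From the deposited counts, genes passing edgeR's filterByExpr (minimum count 10, minimum total 15) were tested with edgeR 4.0.16's robust quasi-likelihood F-test after TMM scaling in R 4.3.3, over all 9 libraries (6 residual degrees of freedom), with Benjamini-Hochberg adjustment over all 18204 genes at 0.05. SE was taken from the fold change and the F statistic. A single dispersion per gene served all groups although primary libraries spread more. SEs against primary can therefore be too small, and those of distal against proximal too large. Members and lists were chosen with earlier results of these data known. The naming rule took 26 members: per class and comparison the 3 with the smallest p and the 2 with the smallest change, those with a sign opposite to their class, the highest per length, and a panel. Alternatives were other scalings, filters and tools (DESeq2 1.42.0, limma 3.58.1) and leaving out each library. The edgeR fit was also run on simulated counts. These had a single dispersion per gene for all groups and so lacked the larger spread of the primary libraries.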

Additional observations from a re-analysis of the deposited data

How the results depend on the processing

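No paired analysis was possible because the labels do not say which libraries share a mouse. The threshold calls over all genes depended on the tool. Genes called in distal against primary numbered 10 with library totals alone, 1444 with DESeq2 (205 higher), 1 with limma-voom, 3126 with voom and sample quality weights (1187 higher, added after seeing the data) and 0 in a fit of the compared groups alone. In proximal against primary they numbered 15 with median-ratio size factors, 1486 with DESeq2 (136 higher), 1 with limma-voom, 26 without a filter on low counts, 23 with a filter of 1 CPM in 3 libraries, 22 without robust shrinkage, 3607 with quality weights (1479 higher) and 0 in the compared groups alone. In distal against proximal DESeq2 called 85 (81 higher). With quality weights 5 members were called in distal and 4 in proximal against primary, and 0 in every other alternative that kept all libraries.

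Leaving out 1 library at a time, genes called ranged from 0 to 5203 in distal against primary, from 0 to 5447 in proximal against primary and from 0 to 38 in distal against proximal, and members called from 0 to 31, from 0 to 28 and from 0 to 0. The upper ends of the first 2 are the fits without primary 1, and 38 is the fit without distal 1. The causes were not tested. The mitotic median log2 fold change ranged from 0.57 to 1.19 in distal against primary, from 0.44 to 1.05 in proximal against primary and from -0.03 to 0.26 in distal against proximal; the replication median ranged from 0.41 to 0.58, from 0.22 to 0.43 and from 0.06 to 0.24.

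Signs turned for members near 0. In proximal against primary, Cdt1 was at 0.088 with library totals alone, 0.041 without a filter and 0.10 with quality weights, Mcm7 at 0.058, 0.0043 and 0.20, and Cdc20 at 0.063, 0.0088 and 0.024 under the same 3. With quality weights Mcm6 was at 0.014 and Gins2 at 0.044. In distal against primary, Gins2 was at 0.028 with library totals alone and 0.13 with quality weights. In distal against proximal, Kif20a was at -0.00067 with median-ratio size factors, -0.00068 with DESeq2 and -0.042 with quality weights. Over the fits without 1 library, values in distal against primary ranged from -0.25 to 0.18 for Gins2, -0.034 to 0.23 for Mcm7 and -0.00043 to 0.18 for Cdc20. In proximal against primary they ranged from -0.36 to 0.059 for Gins2, -0.19 to 0.013 for Mcm6, -0.16 to 0.10 for Mcm7, -0.094 to 0.10 for Cdt1 and -0.21 to 0.17 for Cdc20. In distal against proximal they ranged from -0.17 to 0.11 for Kif20a, -0.019 to 0.13 for Pcna and -0.26 to 0.10 for Cenpf. In a promoter window of 150 bases the CHR share of the replication members was 6.67% (1 of 15 genes), against 20% (3 of 15) in 250 bases. The share of all genes was 11.2% in 150 bases, against 19.6% in 250 bases. That of the mitotic members was 40.9%, against 50%.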
